A study of Mus musculus with 35 samples.

Results

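Transcript levels of 8 genes were followed in myeloid-derived suppressor cells (MDSC) of mice with pancreatic tumors. The genes were the receptors Csf1r, Csf3r, Csf2ra, Csf2rb, Csf2rb2, Flt3 and Kit, and Csf1, which encodes the ligand of CSF1R. They were chosen by name, as the rows of the count table whose Ensembl identifier maps to these symbols, and are 8 of 53379 gene rows. All 8 were found. CSF1R, the receptor for macrophage colony-stimulating factor (M-CSF, the product of Csf1), sustains monocytes and macrophages. CSF3R, the receptor for G-CSF, drives the production of neutrophils. The receptor for GM-CSF joins the ligand-binding alpha chain CSF2RA to the common beta chain CSF2RB, which also serves the receptors for IL-3 and IL-5, and mice carry a second beta chain gene, Csf2rb2, whose product serves IL-3. FLT3 and KIT are receptor tyrosine kinases of hematopoietic progenitors, with FLT3 retained on developing dendritic cells and KIT on mast cells.

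Tumors were grown in the pancreas of female C57BL/6 mice from T110299, a line of KPC origin. KPC mice are a genetically engineered model of pancreatic cancer. On days 18 and 20 after tumor induction, treated mice received intravenous poly(I:C)c, 50 µg of the synthetic double-stranded RNA poly(I:C) complexed with polyethylenimine, and control mice are labelled untreated. The labels' protocol and the study's methods name glucose as the control, whereas the study's results describe these mice as not treated. CD11b+ cells from spleen and tumor were sorted into Ly6Clo Ly6G+ PMN-MDSC and Ly6Chi Ly6G- M-MDSC, and bulk tumor of untreated mice was lysed without sorting. The mice were age-matched at 6 to 12 weeks, and the tumor comes from a single line. There were 4 libraries in each of the 9 groups, except for 3 of spleen PMN-MDSC from treated mice and 3 usable ones of tumor M-MDSC from treated mice. A tumor M-MDSC library with 10 counts was left out, and 34 of 35 libraries were used. Libraries are numbered within each group by their order in the count table, not by the replicate numbers of the labels. The library left out is number 1 of its group. MDSC libraries held 793070 to 4357105 counts, and bulk tumor libraries 3771590 to 8886115. A level is given as CPM, the gene's count scaled to 1000000 counts in its library. In MDSC, 3 counts, the limit that a count of 0 allows, stood for 0.689 to 3.78 CPM. Such limits cover counting error only.

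The sorted libraries were compared with marker lists before any result. Spleen PMN-MDSC of untreated mice held the neutrophil markers at a summed level of 14924 to 27169 CPM, against 2264 to 5837 CPM in spleen M-MDSC. Tumor PMN-MDSC held only 859 to 3180 CPM of them, and Ly6g, the gene of the antigen used in the sort, stood at 0 to 9.19 CPM in untreated tumors, against 34.5 to 84.7 CPM in untreated spleens. Macrophage markers (6 genes, among them C1qa and Mrc1) summed to 3121 to 4073 CPM in tumor PMN-MDSC of untreated mice, above the 1579.9 to 2296 CPM of tumor M-MDSC. In that comparison 5 of 6 macrophage markers were called higher in PMN-MDSC, and 4 of 8 tested neutrophil markers as well. For tumors the name PMN-MDSC is therefore used for the sort gate alone. Other lists of 3 to 5 markers each reached, in the highest MDSC library, a summed 620 CPM for epithelial tumor cells, 330 CPM for progenitors, 293 CPM for endothelium, 134 CPM for fibroblasts, 133 CPM for erythroid cells, 131 CPM for plasmacytoid dendritic cells, 114 CPM for B cells and 30.1 CPM for T and NK cells. In sorted or bulk material, fewer cells of a type and less transcript per cell cannot be told apart.

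**Figure D1:**
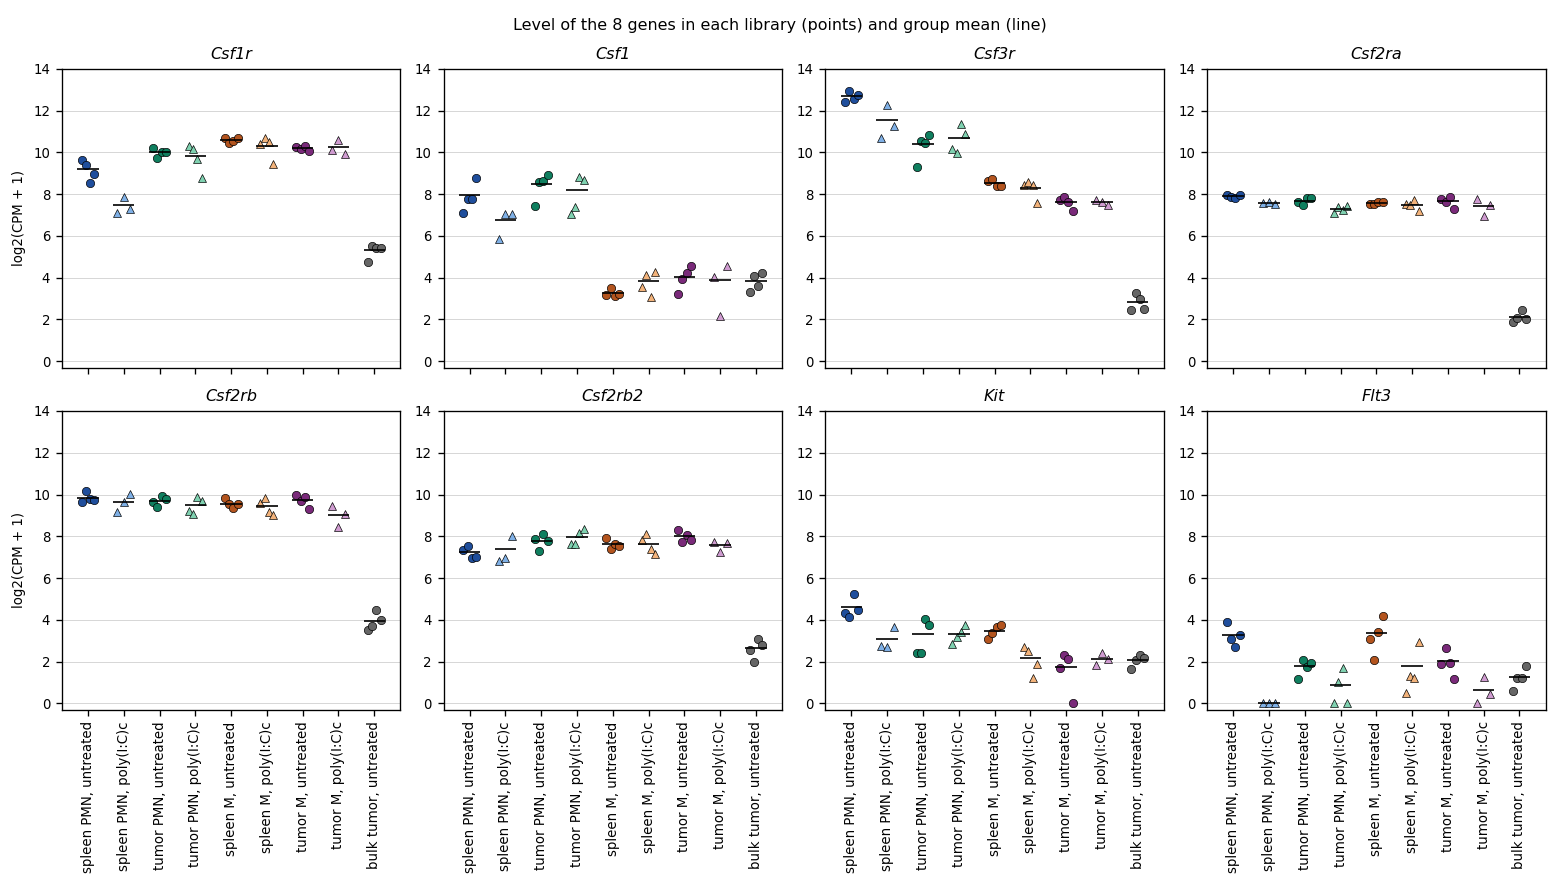
Level of each gene as log2(CPM + 1) on the vertical axis in every library (circles untreated, triangles poly(I:C)c), with a line at the group's mean CPM on the same scale. Csf3r and Csf1 stand highest in the libraries sorted as PMN-MDSC, while Csf2ra, Csf2rb and Csf2rb2 each lie in a narrow band over all 8 MDSC groups. Flt3 is at 0 in the 3 treated spleen PMN-MDSC libraries.

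Calls rest on edgeR's quasi-likelihood test over the genes whose mean reached 25 counts in the libraries compared, and a gene is called at a Benjamini-Hochberg adjusted p under 0.05. Fold changes are on a log2 scale after TMM scaling, which corrects library totals for composition, so that they can differ from ratios of CPM. TMM factors were 0.627 to 0.92 in spleen PMN-MDSC and 1.1 to 1.26 in spleen M-MDSC. Scaling to the library total alone took the median log2 fold change of all genes from -0.11 to -0.67 for PMN-MDSC minus M-MDSC in treated spleens. P-values measure the spread between libraries, which the labels number separately and which may in part be technical. PMN-MDSC and M-MDSC, or spleen and tumor, may come from the same mice, and the tests treated them as independent.

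The comparison of cell types asks which receptors separate the granulocytic from the monocytic fraction. In untreated spleens, 6 of the 8 genes were called, 5 higher and 1 lower in PMN-MDSC. Of all 8579 genes tested 64.4% were called, 30.9% as higher and 33.4% as lower. In treated spleens 4 of 6 tested were called (61.2% of all genes), in untreated tumors 2 of 6 (13% of all genes) and in treated tumors 1 of 6 (0.369% of all genes). Csf3r was the gene called in all 4 settings, each time higher in PMN-MDSC. Under a stricter rule, an adjusted p under 0.001 with at least 2-fold change, Csf3r and Csf1 were called in untreated spleens, treated spleens and untreated tumors (23.2%, 21.2% and 1.65% of all genes). Neutrophil markers were called higher in PMN-MDSC for 9 of 9 genes in both spleen settings and for 2 of 9 in treated tumors, and their part in the differences of Csf3r and Csf1 was not tested.

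Csf3r lies on the plus strand of chromosome 4 (chr4:126024550-126044440, GRCm38). Its RefSeq promoter on GRCm38.p6, chr4:126024409-126024708, from 250 bases before to 50 after the transcript start, is printed with that of Csf1 (minus strand, chr3:107760420-107760719, gene at chr3:107741048-107760469), because these genes separated the fractions most. Both are written 5′ to 3′ along the gene's strand, and capitals mark GAGGAA, the core bound by PU.1 (Spi1), searched on both strands.
Csf3r: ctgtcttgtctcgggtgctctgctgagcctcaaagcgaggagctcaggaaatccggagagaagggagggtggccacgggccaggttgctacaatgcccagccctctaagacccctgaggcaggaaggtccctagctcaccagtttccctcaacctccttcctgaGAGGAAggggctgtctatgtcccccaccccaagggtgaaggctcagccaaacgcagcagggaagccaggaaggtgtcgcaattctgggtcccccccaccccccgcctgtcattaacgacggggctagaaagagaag
Csf1: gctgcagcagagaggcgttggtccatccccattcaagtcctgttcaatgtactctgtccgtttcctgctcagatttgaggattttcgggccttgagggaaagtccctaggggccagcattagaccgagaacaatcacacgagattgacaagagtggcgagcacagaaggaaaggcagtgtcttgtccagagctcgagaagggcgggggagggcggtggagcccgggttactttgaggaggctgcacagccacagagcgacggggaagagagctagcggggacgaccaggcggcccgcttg
The Csf3r promoter holds 1 match and the Csf1 promoter none. GAGGAA occurs in 28.3% of 32851 promoters of this length, and the C/EBP-type pattern TTNNGNAA, found in 40.7% of them, is in neither. A match is a description of letters and not a binding site.

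Spleen PMN-MDSC of untreated mice held Csf3r at 5473, 7909, 5938 and 6981 CPM. In spleen M-MDSC of untreated mice it stood at 395, 416, 335 and 331 CPM. The groups lie far apart, and the log2 fold change was 4.54 ± 0.208 (SE; adjusted p = 8.1e-07, edgeR). In treated spleens the PMN-MDSC held 1669, 4938 and 2427 CPM and the M-MDSC 351, 378, 342 and 193 CPM, a log2 fold change of 3.85 ± 0.467 (adjusted p = 0.00029). In untreated tumors the difference was 2.81 ± 0.297 (adjusted p = 0.00013), and in treated tumors 3.24 ± 0.44 (adjusted p = 0.033). The last call was lost in 6 of 7 fits with 1 library left out (adjusted p up to 0.147), at log2 fold changes of 2.92 to 3.42.

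The comparison of compartments asks how the cells differ between tumor and spleen. It gave calls for 3 of 7 tested genes in untreated PMN-MDSC (59.1% of all genes called), 2 of 6 in treated PMN-MDSC (53.6%) and 3 of 6 in untreated M-MDSC (28.4%). In treated M-MDSC (5.97% of all genes), edgeR called 0 of 6, with 1 at an unadjusted p under 0.05 (Csf3r) and 0 by DESeq2. The stricter rule kept Csf3r in untreated PMN-MDSC (21.7% of all genes) and no other.

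Within PMN-MDSC of untreated mice, Csf3r was lower in tumor than in spleen. Tumor PMN-MDSC of untreated mice held 619, 1503, 1411 and 1797 CPM, all below the spleen libraries, and the log2 difference, tumor minus spleen, was -2.45 ± 0.346 (adjusted p = 0.00019). All 9 neutrophil markers were called lower in the same comparison, with a median of -3.84, and their part in the Csf3r difference was not tested. In treated mice the tumor libraries held 1128, 1014, 2631 and 1859 CPM and overlapped the spleen libraries (-1.30 ± 0.51; adjusted p = 0.058). Without treated spleen PMN-MDSC 1 or treated tumor PMN-MDSC 3 the adjusted p was under the threshold, the lowest at 0.027, as it was in 4 of 8 other settings. In M-MDSC of untreated mice Csf3r was also lower in tumor, at 208, 234, 198 and 144 CPM (-0.65 ± 0.153; adjusted p = 0.0073), and of 6 tested neutrophil markers 4 were called lower with it and 1 higher. The fit over all MDSC groups gave an adjusted p of 0.2 for this difference. In treated M-MDSC the value was -0.62 ± 0.253 (adjusted p = 0.19), and 0.043 without treated spleen M-MDSC 4.

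Poly(I:C)c gave no call for Csf3r. In spleen PMN-MDSC the log2 fold change, treated minus untreated, was -0.82 ± 0.405 (adjusted p = 0.23), although all 3 treated libraries lay below the 4 untreated ones. Without treated library 2, the highest of the 3, the adjusted p was 0.042, and without the count minimum 0.043. In tumor PMN-MDSC the value was 0.31 ± 0.396 (adjusted p = 0.74), and the difference between the effects in tumor and spleen was 1.16 ± 0.625 (adjusted p = 0.39).

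Of the 9 groups, spleen PMN-MDSC of untreated mice were highest for Csf3r, with 4 libraries above those of every other group. Treated spleen PMN-MDSC followed and overlapped both tumor PMN-MDSC groups, which overlapped each other. Spleen M-MDSC came next, treated and untreated overlapping, then tumor M-MDSC, which reached into the range of treated spleen M-MDSC, and bulk tumor at 4.49 to 8.48 CPM. Per exon length, as FPKM (CPM divided by exon length in kilobases), Csf3r was 11.1 to 25.4 times Csf1r in the untreated spleen PMN-MDSC libraries. In untreated tumor PMN-MDSC it was 0.832 to 2.82 times Csf1r, and in untreated spleen M-MDSC 0.326 to 0.47 times.

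**Figure D2:**
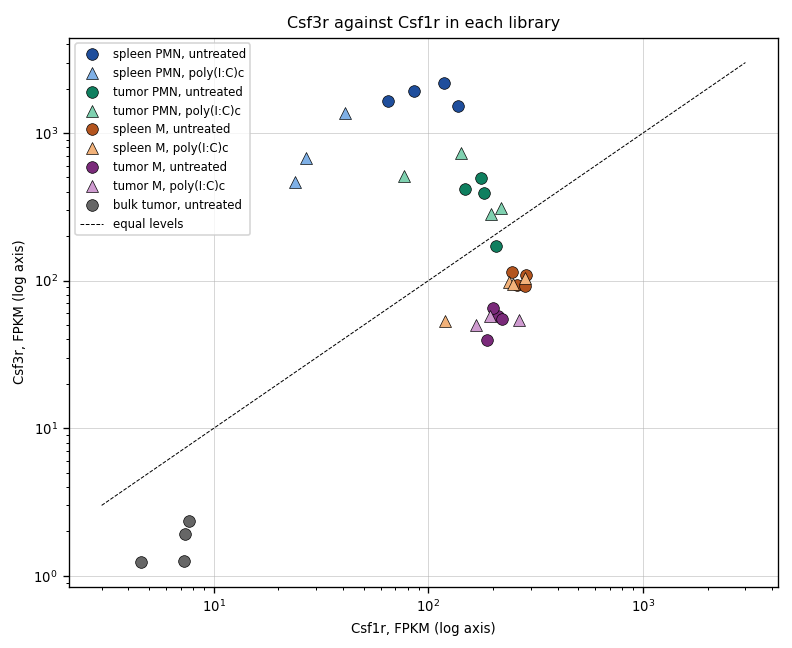
Csf3r against Csf1r in every library, both in FPKM on log axes (circles untreated, triangles poly(I:C)c), with a dashed line at equal levels. Spleen PMN-MDSC lie far above the line, all M-MDSC and bulk tumor libraries below it, and tumor PMN-MDSC near to or above it.

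Csf1r lies on chromosome 18 of GRCm38, with 24 exon blocks summing to 5774 bases. M-MDSC held it at high levels everywhere. The 4 untreated spleen M-MDSC libraries held 1644, 1415, 1488 and 1626 CPM, and the 4 untreated spleen PMN-MDSC libraries 790.3, 682, 374 and 493 CPM. Every M-MDSC library lay above every PMN-MDSC library, and Csf1r was lower in PMN-MDSC by a log2 fold change of -1.02 ± 0.215 (adjusted p = 0.0024). In treated spleens the difference was -2.28 ± 0.384 (adjusted p = 0.0013), from 138, 235 and 156 CPM in PMN-MDSC against 1368, 1630.0, 1434 and 693 CPM in M-MDSC. Macrophage markers were called higher in PMN-MDSC for 5 of 6 genes in untreated spleens and lower for 4 of 5 tested in treated spleens. Monocyte markers were called lower in PMN-MDSC for 5 of 5 genes in untreated and 4 of 5 in treated spleens. The part of either list was not tested. In tumors no difference was called. Untreated tumor PMN-MDSC held 1191, 852, 1053 and 1019 CPM and tumor M-MDSC 1217, 1150.4, 1275 and 1084 CPM, which overlap (-0.16 ± 0.145; adjusted p = 0.53). In treated tumors the value was -0.31 ± 0.328 (adjusted p = 0.67).

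Tumor PMN-MDSC held more Csf1r than spleen PMN-MDSC. The log2 difference, tumor minus spleen, was 0.67 ± 0.253 in untreated mice (adjusted p = 0.041) and 1.90 ± 0.385 in treated mice (adjusted p = 0.0036). Leaving out 1 library ended the call in untreated mice in 5 of 8 fits (adjusted p up to 0.124; untreated tumor PMN-MDSC 1, 3 or 4, or untreated spleen PMN-MDSC 3 or 4), and in treated mice in 0 of 7. Macrophage markers moved with Csf1r here, with 5 of 6 called higher in tumor in untreated and 6 of 6 in treated mice. Of 5 monocyte markers, 3 were called higher and 1 lower in untreated mice, and 4 higher and 1 lower in treated mice. The part of either list was not tested. In M-MDSC no difference between tumor and spleen was called for Csf1r in either treatment.

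The comparison of treated with untreated mice asks what poly(I:C)c changes in each fraction. Of 7 genes tested in spleen PMN-MDSC, Csf1r alone was called, and it was lower (11.6% of 7261 genes were called, 5.52% as lower). In tumor PMN-MDSC (3.36% of all genes called), spleen M-MDSC (19.4%) and tumor M-MDSC (2.88%), edgeR called 0 of 6 tested genes each and DESeq2 0. At an unadjusted p under 0.05 these 3 comparisons gave 1 (Csf2ra), 1 (Csf1) and 2 genes (Csf2rb and Csf2rb2).

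In spleen PMN-MDSC, Csf1r stood at 790.3, 682, 374 and 493 CPM in untreated and 138, 235 and 156 CPM in treated mice, with no overlap. It fell by a log2 fold change of -1.43 ± 0.341 (adjusted p = 0.03). All 8 other settings of scaling, filter, tool and fit called it (adjusted p up to 0.035), whereas 5 of 7 fits without a single library did not (adjusted p up to 0.112). Those libraries were untreated 1, 2 and 4 and treated 1 and 3, and the log2 fold change without any single library was -1.73 to -1.26. Macrophage markers fell in the same libraries. Their summed level was 1065, 545, 327 and 542 CPM in untreated and 96.1, 54.9 and 37.8 CPM in treated mice, and all 6 markers were called lower. Of 5 monocyte markers, 3 were tested and 1 was called higher and 1 lower, and their summed level was 172 to 1259 CPM in untreated and 630.1 to 1032 CPM in treated mice. Neutrophil markers summed to 14924 to 27169 CPM and 25816 to 58364 CPM, with 5 of 9 called higher. What share these marker changes have in the fall of Csf1r was not tested.

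**Figure D3:**
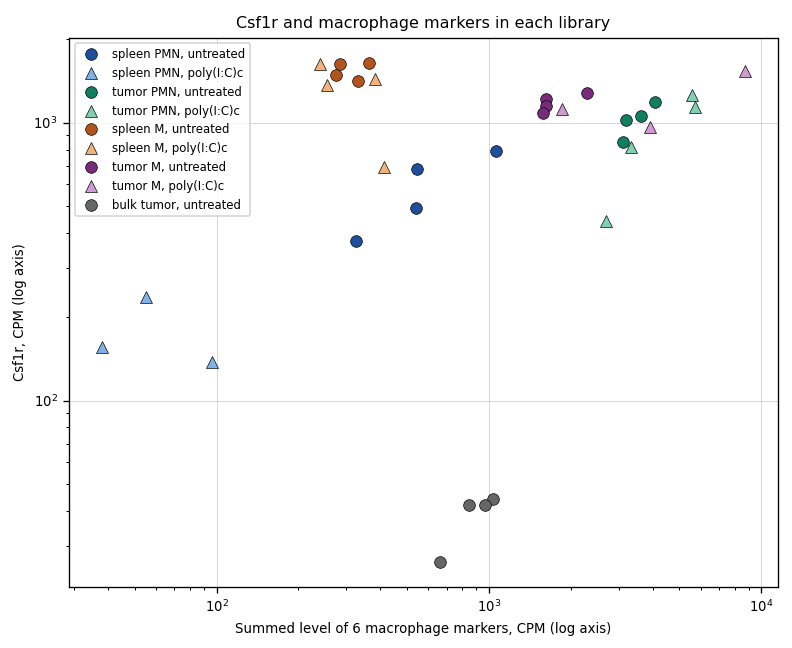
Csf1r in CPM against the summed CPM of 6 macrophage markers in every library, both on log axes (circles untreated, triangles poly(I:C)c). The 3 treated spleen PMN-MDSC libraries are the lowest MDSC libraries on both axes, whereas spleen M-MDSC hold high Csf1r at marker sums of 240.5 to 411 CPM.

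Csf1r showed no call after treatment in the other fractions. Tumor PMN-MDSC of treated mice held 1253, 1136, 815 and 443 CPM, around the untreated libraries (-0.23 ± 0.258; adjusted p = 0.69). Spleen M-MDSC gave -0.21 ± 0.237 (adjusted p = 0.58), and tumor M-MDSC, at 1117, 1531 and 961 CPM, gave -0.07 ± 0.218 (adjusted p = 0.9). A separate test of whether treatment effects differ found none in the 8 genes at the threshold: edgeR called 0 of 7, 0 of 6, 0 of 7 and 0 of 6 for tumor against spleen (PMN-MDSC, then M-MDSC) and for PMN-MDSC against M-MDSC (spleen, then tumor) (3.5%, 0.79%, 10.9% and 0.0239% of all genes). The unadjusted counts were 1, 1, 2 and 0, and DESeq2 called 0, 0, 1 and 0. For Csf1r the effect in PMN-MDSC was 1.22 ± 0.446 higher in tumor than in spleen (log2; adjusted p = 0.16, and 0.021 without the count minimum), and in spleen it was -1.14 ± 0.424 in PMN-MDSC relative to M-MDSC (adjusted p = 0.099). The latter difference was called in 4 of 8 other settings, which were DESeq2 (adjusted p = 0.045), library totals (0.028), the fit over all MDSC groups (0.035) and no count minimum (0.0076). It was also called in 3 of 15 fits without a single library (untreated spleen PMN-MDSC 3, treated spleen PMN-MDSC 2 or treated spleen M-MDSC 4; lowest adjusted p = 0.033). Whether the fall in spleen PMN-MDSC differs from the effect in spleen M-MDSC thus depended on the setting.

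Csf1, the ligand of CSF1R, was higher in PMN-MDSC than in M-MDSC in 3 of 4 settings. Untreated spleen PMN-MDSC held 135, 217, 216 and 438 CPM, and untreated spleen M-MDSC 7.91, 10.2, 7.86 and 8.33 CPM. Even the lowest PMN-MDSC library was far above the M-MDSC libraries, and the log2 fold change was 5.25 ± 0.389 (adjusted p = 5.7e-06). In untreated tumors the values were 172, 385, 396 and 489.9 CPM against 8.25, 14.2, 17.5 and 22.7 CPM (4.63 ± 0.375; adjusted p = 3.4e-05), and in treated spleens the difference was 3.60 ± 0.41 (adjusted p = 0.00022). In treated tumors PMN-MDSC held 130.3, 168, 446 and 411 CPM and M-MDSC 15.2, 3.44 and 22.5 CPM. These do not overlap, at 4.58 ± 0.801 with an adjusted p of 0.076, which DESeq2 (1.2e-09) and the fit over all MDSC groups (4.3e-05) put under the threshold.

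Csf1 in PMN-MDSC did not pass the test for compartment or treatment. It stood at 0.39 ± 0.378 in tumor relative to spleen in untreated mice (adjusted p = 0.39) and 1.03 ± 0.532 in treated mice (adjusted p = 0.13, 0.043 without treated tumor PMN-MDSC 1, 0.039 with library totals and 0.0073 without the count minimum). After poly(I:C)c, spleen PMN-MDSC held 57.6, 133 and 129.97 CPM, all below the lowest untreated library (-0.92 ± 0.439; adjusted p = 0.22, and 0.016 without the count minimum), and tumor PMN-MDSC gave -0.31 ± 0.467 (adjusted p = 0.78). In M-MDSC, where levels were near 10 CPM, Csf1 was higher in tumor than in spleen of untreated mice (1.07 ± 0.306; adjusted p = 0.021). Leaving out 1 library, Csf1 passed the count minimum in 6 fits and was called in 4. That call was lost without untreated spleen M-MDSC 1 or 3 (adjusted p up to 0.059), in the fit over all MDSC groups (0.19) and with scaling to library totals (0.054). Macrophage markers were called higher in tumor there for 5 of 6 genes and epithelial tumor cell markers for 2 of 2 tested. Of 6 tested neutrophil markers, 4 were called lower and 1 higher. The part of these lists was not tested. Spleen M-MDSC after treatment held Csf1 at 10.7, 16.3, 7.43 and 18.6 CPM (0.68 ± 0.306; adjusted p = 0.15). The difference of effects between PMN-MDSC and M-MDSC in spleen was -1.53 ± 0.583 (adjusted p = 0.11), and was called with library totals (0.043) and without the count minimum (0.00064).

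Csf2ra, Csf2rb and Csf2rb2 varied least of the 6 genes with enough counts in MDSC. Csf2ra, on the minus strand of chromosome 19 (chr19:61223957-61228429, GRCm38), ranged from 123 to 248 CPM over the 30 MDSC libraries. The common beta chain gene Csf2rb ranged from 345 to 1137 CPM and Csf2rb2 from 111 to 323 CPM. After poly(I:C)c edgeR called 0 of the 12 tests on these 3 genes and DESeq2 0, while 3 had an unadjusted p under 0.05, with log2 fold changes from -0.81 to 0.41 (adjusted p from 0.15 to 0.96).

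The beta chain genes are neighbours on chromosome 15 of GRCm38 and point away from each other, with Csf2rb2 on the minus strand (chr15:78282507-78305721) and Csf2rb on the plus strand (chr15:78325752-78353847), 20031 bases apart. Their coding sequences, of 2688 bases for Csf2rb and 2634 for Csf2rb2, were identical at 95.4% of 2626 aligned positions, and 26% of the 50-base windows of Csf2rb occur unchanged in Csf2rb2. Reads from these windows cannot be assigned to either gene by sequence, which leaves the split between them uncertain. The stretch of 150 coding bases that differs most is shown because reads in it tell the genes apart, with capitals at the 25 differing bases (Csf2rb-206, coding bases 300 to 449, and Csf2rb2-201, coding bases 303 to 452, from the GENCODE exons).
Csf2rb: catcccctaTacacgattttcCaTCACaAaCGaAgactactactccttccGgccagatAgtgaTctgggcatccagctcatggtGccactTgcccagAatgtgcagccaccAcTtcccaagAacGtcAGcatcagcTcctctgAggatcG
Csf2rb2: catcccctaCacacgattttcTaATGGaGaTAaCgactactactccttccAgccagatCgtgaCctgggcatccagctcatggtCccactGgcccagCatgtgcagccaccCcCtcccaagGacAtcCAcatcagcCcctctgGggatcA

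Csf2ra was higher in PMN-MDSC than in M-MDSC of untreated spleens, at 248, 232, 223 and 248 CPM against 185, 185, 199 and 193 CPM. The groups do not overlap, and the log2 fold change was 0.70 ± 0.104 (adjusted p = 0.00035). In treated spleens it was 0.66 ± 0.182 (adjusted p = 0.013), a value that dropped to 0.33 with upper-quartile scaling (adjusted p = 0.13) and to 0.10 with library totals (adjusted p = 0.63). Csf2rb was higher in PMN-MDSC of untreated spleens (0.66 ± 0.174; adjusted p = 0.008), where 800.4, 1137, 869 and 861 CPM overlapped 897, 745, 646 and 739 CPM. With upper-quartile and library-total scaling the Csf2rb value was 0.42 and 0.28 (adjusted p = 0.078 and 0.125). In treated spleens Csf2rb gave 0.75 ± 0.291 (adjusted p = 0.052), and 5 of 8 other settings (lowest adjusted p = 0.01) and the fits without treated spleen PMN-MDSC 1 or treated spleen M-MDSC 2 called it. Csf2rb2 was not called between cell types in any of the 4 settings (log2 fold change -0.17 to 0.56), and in tumors neither were Csf2ra and Csf2rb.

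Between compartments, Csf2ra in treated PMN-MDSC was lower in tumor than in spleen, at 138, 165, 149 and 169.7 CPM against 192, 195 and 186 CPM (-0.72 ± 0.192; adjusted p = 0.013). The call was lost without treated tumor PMN-MDSC 1 (adjusted p = 0.063) and with library-total scaling, where the value was -0.30 (adjusted p = 0.155). In treated PMN-MDSC, neutrophil markers were called lower in tumor for 9 of 9 genes (median -3.07) and macrophage markers higher for 6 of 6 (median 5.91). The part of either list was not tested. In untreated PMN-MDSC the Csf2ra value was -0.34 ± 0.149 (adjusted p = 0.069). Csf2rb2 was higher in tumor than in spleen M-MDSC of untreated mice, at 312, 210.3, 269 and 228 CPM against 242, 169, 198 and 186 CPM (0.62 ± 0.159; adjusted p = 0.012), and the call was lost in the fit over all MDSC groups (adjusted p = 0.096) and with library-total scaling (0.36; adjusted p = 0.089). Csf2ra (0.34 ± 0.125; adjusted p = 0.062) and Csf2rb (0.44 ± 0.162; adjusted p = 0.065) lay just above the threshold in that comparison. There, macrophage markers were called higher in tumor M-MDSC for 5 of 6 genes. Of 6 tested neutrophil markers, 4 were called lower and 1 higher, and the part of either list was not tested.

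The lowest treatment values of the 3 genes came from tumor M-MDSC, where Csf2rb stood at 688, 345 and 527 CPM after poly(I:C)c and at 1017, 828, 956 and 627 CPM without (-0.81 ± 0.281; adjusted p = 0.15, and 0.034 without the count minimum). Csf2rb2 in the same libraries gave -0.54 ± 0.212 (adjusted p = 0.2). Csf2ra in treated tumor PMN-MDSC lay below every untreated library (195, 179, 226 and 225 CPM) with a log2 fold change of -0.43 ± 0.164 (adjusted p = 0.2).

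Csf2rb2 made up a share of the counts of both beta chain genes that can be read without scaling between libraries. The share was 14.1% ± 1.92 in untreated spleen PMN-MDSC and 16.7% ± 3.19 in treated ones (SD, n = 4 and 3). Tumor PMN-MDSC held 20.9% ± 1.69 untreated (19.1 to 22.6%) and 25.8% ± 1.95 treated (23.3 to 27.9%), with no overlap. A two-sided exact permutation test gave p = 0.0286 for this difference of 4.95 percentage points, the smallest p that 4 against 4 allows, and 0.114 after adjustment over the 4 tests. In tumor M-MDSC the share was 23.1% ± 2.73 untreated and 27.2% ± 3.77 treated (difference 4.11; exact permutation p = 0.171, adjusted 0.286). In spleen M-MDSC it was 20.8% ± 2.11 and 22.2% ± 0.666 (difference 1.36; exact permutation p = 0.286).

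**Figure D4:**
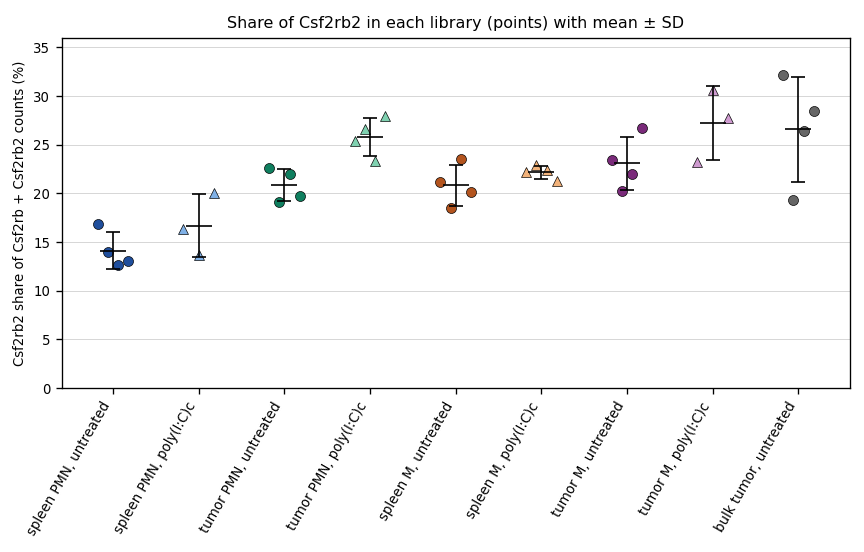
Csf2rb2 counts as a percentage of Csf2rb plus Csf2rb2 counts on the vertical axis, in every library (circles untreated, triangles poly(I:C)c), with mean ± SD of each group. Spleen PMN-MDSC of untreated mice are lowest, at 12.6 to 16.9%, and the treated tumor PMN-MDSC libraries lie above the untreated ones.

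The progenitor receptors Kit and Flt3 stood at 0 to 36.2 CPM and 0 to 17.1 CPM over the MDSC libraries. Kit, on the plus strand of chromosome 5 (chr5:75574916-75656722, GRCm38), was highest in untreated spleen PMN-MDSC, at 19.1, 16.4, 36.2 and 21.2 CPM (33 to 107 counts). It was higher there than in spleen M-MDSC (7.38, 9.29, 11.6 and 12.4 CPM; 1.55 ± 0.287; adjusted p = 0.0012). In untreated tumor PMN-MDSC it was lower than in spleen, at 4.25, 4.33, 15.6 and 12.3 CPM (-1.43 ± 0.414; adjusted p = 0.012). No library of the spleen group overlapped either of these groups. Treated spleen PMN-MDSC held 5.76, 5.57 and 11.5 CPM of Kit, below all untreated libraries (-1.29 ± 0.389; adjusted p = 0.066). DESeq2 (adjusted p = 0.024), upper-quartile (0.045) and library-total scaling (0.036), and no count minimum (0.021), put this difference under the threshold. In spleen M-MDSC Kit was below the count minimum, at 5.52, 4.66, 1.35 and 2.65 CPM after treatment, again below all untreated libraries, and without the minimum edgeR called it (-1.42 ± 0.396; adjusted p = 0.011). Erythroid markers (4 genes), of which 1 was tested in each comparison, moved with Kit in these comparisons, and their part was not tested. They summed to 41.8 to 133 CPM in untreated and 0 to 3.84 CPM in treated spleen PMN-MDSC, to 19.97 to 57.6 CPM in untreated and 0 to 3.20 CPM in treated spleen M-MDSC, and to 0 to 12.5 CPM in untreated tumor PMN-MDSC. Progenitor markers (5 genes) went against Kit between cell types in untreated spleens, with 3 of 3 tested called lower in PMN-MDSC (median -5.35). After treatment in spleen M-MDSC 0 of 3 tested were called. In spleen PMN-MDSC after treatment, and between tumor and spleen in untreated PMN-MDSC, 0 of 5 were tested. Of 6 mast cell and basophil markers, 4 were at 0 in all untreated spleen PMN-MDSC libraries, and their sum was 0 to 1.49 CPM. Kit was 0 to 4.36 CPM in tumor M-MDSC and 2.11 to 4.05 CPM in bulk tumor.

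Flt3, on the minus strand of chromosome 5 (chr5:147330741-147400489, GRCm38), stood at 13.8, 7.47, 5.42 and 8.67 CPM in untreated spleen PMN-MDSC, or 52, 15, 16 and 27 counts. The 3 treated libraries held 0 counts. Flt3 was thus lower after poly(I:C)c. The untreated mean, 8.84 ± 3.57 CPM (SD), was 6.44-fold the mean floor of 3 counts per treated library, 1.37 CPM. That ratio leaves out the spread between untreated libraries. The mean count of Flt3 was below the minimum, and edgeR called it without the minimum (adjusted p = 4.2e-08) and with filterByExpr (adjusted p = 0.0073). Conventional dendritic cell markers (7 genes) moved with it, from a summed 89.4, 29.9, 29.5 and 31.1 CPM to 1.92, 6.68 and 1.80 CPM. Of them, 1 was tested, and it was called lower. Other lists also fell without overlap in these libraries: macrophage, erythroid, endothelial, B cell, epithelial tumor cell, and T and NK cell markers. Neutrophil markers went the other way, with 5 of 9 called higher. The part of any list was not tested. In spleen M-MDSC Flt3 stood at 7.38, 3.25, 9.52 and 17.1 CPM untreated and 0.394, 1.46, 1.35 and 6.63 CPM treated. The groups overlap through a single treated library, and without the count minimum the adjusted p was 0.18. Tumor fractions held 0 to 5.39 CPM, and Flt3 did not differ between PMN-MDSC and M-MDSC of untreated spleens beyond the spread (0.25 ± 0.438; adjusted p = 0.62).

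Bulk tumor held little transcript of the receptors. All 6 genes tested were lower in bulk tumor than in untreated tumor PMN-MDSC (69.7% of 11138 genes were called, 32.8% as lower), and 5 of 6 were lower than in tumor M-MDSC (69.2% called, 31% as lower). The same 6 and 5 genes passed the stricter rule (40.5% and 41.9% of all genes). Macrophage markers were called lower in bulk tumor for 5 of 6 genes and higher for the other in both comparisons. Neutrophil markers were called lower for 8 of 8 tested against PMN-MDSC (median -8.67) and 5 of 5 tested against M-MDSC. How many MDSC the bulk tissue held was not tested. Csf1r stood at 26.3, 44.3, 42.2 and 42.01 CPM in bulk tumor, lower by -5.00 ± 0.224 than in PMN-MDSC (log2; adjusted p = 1e-08) and by -5.12 ± 0.23 than in M-MDSC (adjusted p = 1.7e-08). Csf3r gave the widest difference from PMN-MDSC, at -8.07 ± 0.439 (adjusted p = 3.7e-08), and Csf2ra and Csf2rb lay between -6.21 and -6.06 in both comparisons. Csf1 was the exception. Bulk tumor held it at 9.12, 16.2, 11.1 and 17.9 CPM, within the range of tumor M-MDSC (-0.36 ± 0.327; adjusted p = 0.34), and -5.02 ± 0.368 below PMN-MDSC (adjusted p = 4.2e-07). Per exon length, Csf1 in bulk tumor was 0.289 to 0.465 of Csf1r, against 0.00741 to 0.0229 in untreated tumor M-MDSC.

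**Figure D5:**
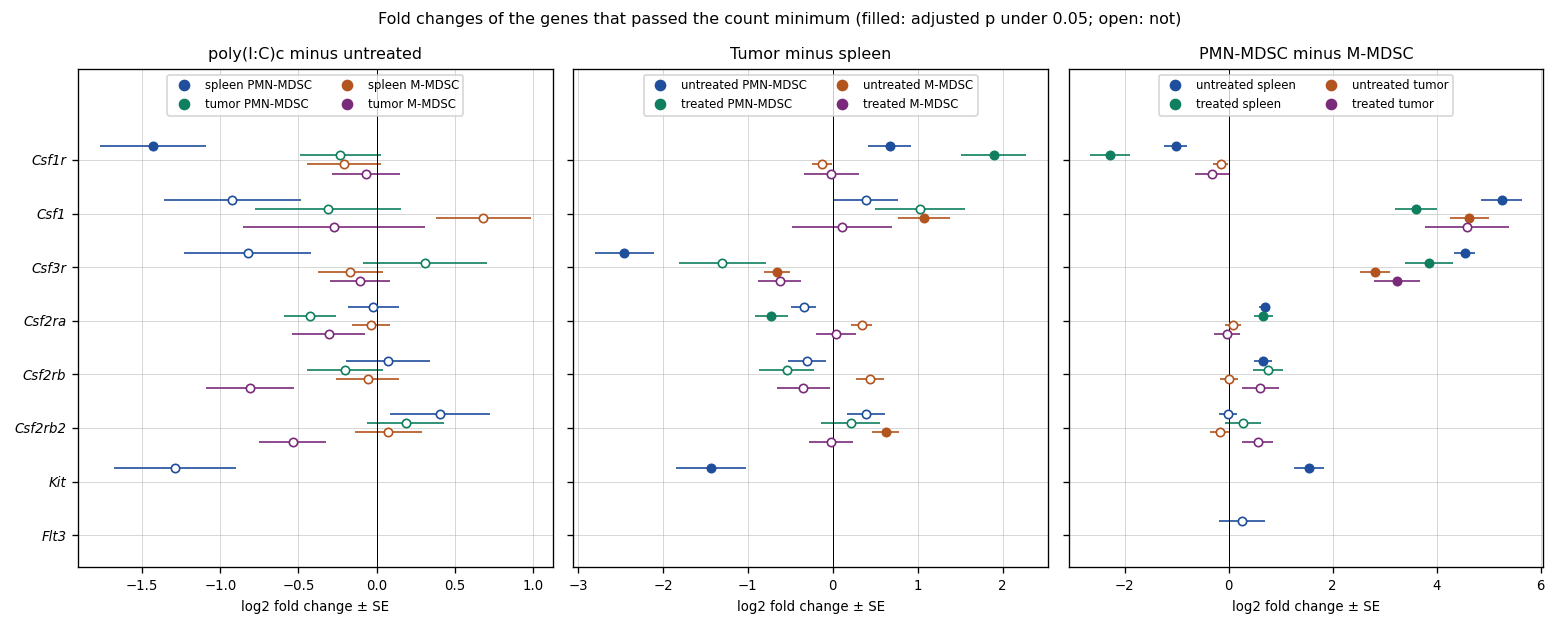
Log2 fold change ± SE (horizontal axis) of the genes that passed the count minimum, by comparison (filled, adjusted p under 0.05; open, above it). Only Csf1r in spleen PMN-MDSC is filled for treatment, while Csf3r is filled in all 4 cell type comparisons.

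Other ligands of these receptors were measured in few reads. Of 7 (Csf2, Csf3, Il34, Flt3l, Kitl, Il3 and Il5), Kitl, the ligand of KIT, was the only one tested, and it was higher in bulk tumor (63.6 ± 7.14 CPM; SD, n = 4) than in tumor M-MDSC (2.78 ± 1.15 CPM; 4.22 ± 0.263; adjusted p = 1.1e-07). Il34, a second ligand of CSF1R, was at 3.73 ± 0.76 CPM in bulk tumor and at no more than 1 count in each untreated MDSC library. Csf2, which encodes GM-CSF, held 2 to 14 counts in the untreated tumor PMN-MDSC libraries 0 in all spleen libraries and 4 to 15 in bulk tumor. Csf3, which encodes G-CSF, held 0 to 22 counts in tumor MDSC libraries, 0 in spleen libraries and 0 to 1 in bulk tumor. Il3 and Il5 had 0 counts in all libraries.

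Genes that act downstream of the receptors were counted by list. Of 18 signal transduction genes, 11 were lower and 0 higher in tumor than in spleen PMN-MDSC of untreated mice (median -0.73, against 0.01 over all genes tested). The share called is near the 59.1% of all genes. In M-MDSC 3 of the 18 were higher and 3 lower in untreated mice (28.4% of all genes called), and 1 higher and 0 lower in treated mice (5.97%). In PMN-MDSC of untreated mice Stat5b, a transcription factor activated by GM-CSF, stood at 86.05 ± 5.80 CPM in tumor and 307 ± 73.4 CPM in spleen (-2.0 ± 0.236; adjusted p = 6.5e-05), and the Src-family kinase Fgr at 274 and 841 CPM (-1.77 ± 0.225; adjusted p = 1e-04). In that PMN-MDSC comparison all 8 tested of 10 genes in the list of targets and feedback were higher in tumor PMN-MDSC (median 1.84), and all 7 tested in tumor M-MDSC of untreated mice (median 2.81, against 0.02 over all genes; 28.4% of all genes called). Those with the smallest adjusted p were the cytokine gene Osm, at 3.32 ± 1.004 CPM in spleen and 776 ± 238 CPM in tumor M-MDSC (8.15 ± 0.313; adjusted p = 1.9e-08), and Socs3, an inhibitor of cytokine signaling, at 117 ± 44.2 and 1487 ± 321 CPM (3.93 ± 0.284; adjusted p = 1.5e-06). Many pathways besides these receptors regulate Osm and Socs3. In the same M-MDSC comparison 5 of 6 macrophage markers were called higher in tumor and 0 lower (median 3.79), and their part was not tested.

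Between cell types in untreated spleens, 10 of 18 signal transduction genes were higher and 2 lower in PMN-MDSC (median 0.65, against -0.08 over all genes), a share called near the 64.4% of all genes (30.9% higher and 33.4% lower). Among the higher ones were Jak2 (1.36 ± 0.155; adjusted p = 6.6e-05) and the phosphatase gene Ptpn6 (1.09 ± 0.125; adjusted p = 6.9e-05). Of 8 lineage factors 2 were called higher and 2 lower in PMN-MDSC of treated spleens (61.2% of all genes called), and Irf8, which directs monocyte fate, was among the lower (5.70 ± 2.27 CPM against 188 ± 25.97 CPM; -4.54 ± 0.282; adjusted p = 6.3e-05). Between tumor and spleen PMN-MDSC of untreated mice, 5 of 7 tested lineage factors were higher in tumor and 2 lower (59.1% of all genes called), and the lower ones included Cebpe, a factor of granulocyte maturation (4.29 ± 1.35 against 40.7 ± 11.8 CPM; -3.34 ± 0.331; adjusted p = 2.5e-05). Among the 7 related receptors, 1 was tested in that comparison, and this gene, Il6ra, was lower in tumor (153 ± 14.4 against 354 ± 56.3 CPM; -1.36 ± 0.2; adjusted p = 0.00024).

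After poly(I:C)c, calls in spleen PMN-MDSC (11.6% of all genes) comprised 1 of 18 signal transduction genes, higher, 1 higher and 1 lower of 7 tested targets, and 1 higher and 2 lower of 7 tested lineage factors. The monocyte factor Klf4 fell from 26.97 ± 20.3 to 0.367 ± 0.371 CPM (-5.57 ± 0.9; adjusted p = 0.0082), and the cyclin gene Ccnd1 from 23.1 ± 10.2 to 1.31 ± 1.68 CPM (-4.11 ± 0.808; adjusted p = 0.017), in the libraries in which Csf1r and the macrophage markers fell. In spleen M-MDSC, 4 of 18 signal transduction genes rose and 2 fell (19.4% of all genes called). Cebpa, which drives myeloid commitment, fell from 174 ± 33.4 to 58.6 ± 20.5 CPM (-1.51 ± 0.273; adjusted p = 0.0048), and Il6ra from 398 ± 33.2 to 202 ± 38.8 CPM (-0.92 ± 0.155; adjusted p = 0.0032). Socs1 rose from 5.65 ± 3.37 to 21.2 ± 13.48 CPM (2.01 ± 0.546; adjusted p = 0.03).

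Profiles over the 8 MDSC group means of log2(CPM + 1), each centred on its own mean, were compared with those of 8536 genes by root mean square difference. The nearest to Csf3r were Pip5k1b (0.301) and 4833407H14Rik (0.326), against its own spread of 1.77 on this scale. Csf1 had no close neighbour, as its nearest genes, Sycp2 and Gabbr1, lay at 0.621 and 0.74 (own spread 2.10). The nearest to Csf1r were Alkbh1 (0.105) and Gm12918 (0.109), to Csf2ra Ap1g1 and Rnf20, to Csf2rb Zfp407 and Trim33, and to Csf2rb2 Top1 and Ppme1. Csf2ra, Csf2rb and Csf2rb2 had spreads of 0.175 to 0.26, so that many genes with steady levels lie near them. Likeness over 8 group means says nothing of shared function.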

How the data were processed

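The members, gene lists and marker lists were chosen with earlier results of these data known. The authors deposited raw fragment counts per gene: per the methods and labels, total RNA of sorted cells or bulk tumor (SMARTer Stranded Total RNA-Seq Kit v2, no molecular identifiers described) was aligned to mm10 with ContextMap and BWA and counted by strand with featureCounts (Subread 1.4.6-p3) on Gencode v16. Stranded counting bears on Csf1r and Flt3, which overlap a gene on the opposite strand. GENCODE M21 (GRCm38) gave symbols and exon lengths (53274 of 53379 rows matched), and promoters from RefSeq GRCm38.p6. Column names gave each library's group. The library with 10 counts fell under the minimum of 1000 counts. Of 48 pairs of libraries within groups, 0 were identical, and their chi-square per degree of freedom was at least 6.19.

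From the deposited counts, CPM and FPKM (by summed exon length) were computed. Each of 18 comparisons was fitted on its own groups with edgeR 4.0.16 (R 4.3.3; TMM, robust quasi-likelihood F-test, two-sided), keeping genes whose mean reached 25 counts, with Benjamini-Hochberg adjustment over all of them. Differences of treatment effects were interaction terms over 4 groups. Shares were compared by exact permutation (scipy 1.17.1). The code was tested on simulated counts. Alternatives were RLE and upper-quartile scaling, no count minimum, filterByExpr, no robust estimates, DESeq2 1.42.0, a fit over all groups, an adjusted p under 0.001 with at least 2-fold change, each of 34 libraries left out, and, added after seeing the data, scaling to library totals. The genes named were all 8 members, up to 2 genes with the smallest adjusted p of each of 5 lists (50 genes) and comparison family, listed ligands, marker genes moving with a member, and the 2 nearest profiles of a member. A gene that this rule would name is not reported here.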

Additional observations from a re-analysis of the deposited data

Results flagged for a closer look

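In 56 groups of 4 libraries (a gene in a group), a library was taken to stand apart where its gap to the nearest other exceeded 0.829 of the group's range, which chance gives in about 1 group in 20. It did so in 2. Csf1r in bulk tumor was 26.3 CPM in the lowest library and 42.01 to 44.3 CPM in the other 3 (gap 0.874 of the range). Flt3 in treated spleen M-MDSC was 6.63 CPM (15 counts) in the highest library and 0.394 to 1.46 CPM (1 to 5 counts) in the other 3 (gap 0.83 of the range).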

How the results depend on the processing

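Calls of the 8 genes after poly(I:C)c numbered 1, and 2 with upper-quartile scaling, 2 with library totals, 2 with DESeq2, 3 with filterByExpr, 7 without a count minimum and 0 at an adjusted p under 0.001 with 2-fold change. Leaving out 1 library gave 0 to 2. For tumor against spleen the 8 calls became 14 without a count minimum and 1 at the stricter threshold (7 to 10 leaving out a library), and for PMN-MDSC against M-MDSC the 13 became 6 at the stricter threshold (12 to 14 leaving out a library). Differences of treatment effects gave 0 calls, 2 with library totals, 5 without a count minimum, 1 with DESeq2 and 1 in the fit over all groups (0 to 1 leaving out a library). The 11 calls of bulk tumor against tumor MDSC stayed at 11 leaving out any library. The cause of these shifts was not tested. Treatment differences of the Csf2rb2 share, with 1 library left out, ranged from 0.881 to 4.05 percentage points in spleen PMN-MDSC, 4.25 to 5.78 in tumor PMN-MDSC, 0.571 to 2.25 in spleen M-MDSC and 2.39 to 6.13 in tumor M-MDSC. The uncalled treatment value of Csf1r changed sign in spleen M-MDSC to 0.04 without treated library 4 (-0.34 to 0.04 leaving out a library), and in tumor M-MDSC to 0.01 and 0.11 without treated library 2 or 4 (-0.26 to 0.11 leaving out a library) and to 0.03 with library totals. Of all values recomputed, 441 under other settings and 460 with a library left out kept their direction and side of the threshold, 11 and 19 lost a call, and 32 and 12 gained one. No paired analysis was possible because the columns of the count table carry cell type, compartment, treatment and a running number that no label ties to a mouse. Depth limits Kit and Flt3, which held under 25 counts on average in most comparisons.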
